A study of Mus musculus with 11 samples.

Results

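Mettl3 knockout (KO) embryonic stem cells (ESCs) were set against wild-type (WT) ESCs, mouse cells of the early embryo that can form every tissue of the body. Of the 11 samples of the series, 6 enter the comparison: 3 WT and 3 KO libraries, taken as pairs A, B and C by the replicate letter that both genotypes share. The genes described are the 15350 of 39179 identifiers with a mean of 10 or more normalized counts over these 6 libraries. All 6 samples are labelled C57BL/6 and were grown without serum in N2B27 medium with the cytokine LIF, the GSK3 inhibitor CHIR99021 and the MEK inhibitor PD0325901, the pair of inhibitors known as 2i that holds ESCs in the naive state. WT cells differ from KO cells by genotype only, as far as the labels say. How Mettl3 was disrupted, how many KO lines were used, and whether pair C came from the same lines as pairs A and B are not given in the sources used here. The labels tie pair C to a proteomic experiment by SILAC, in which cells take up amino acids carrying heavy isotopes. The labels call the replicates biological, so p-values here measure the spread between these libraries.

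Mettl3 is the catalytic subunit of the enzyme complex that adds a methyl group to adenosines inside mRNA, giving N6-methyladenosine (m6A). The mark is written mostly at adenosines within motifs such as GGACT, lies preferentially in long internal exons and around stop codons, and is bound by YTH-domain proteins, of which Ythdf2 brings marked mRNA to the enzymes that degrade it. In naive ESCs, m6A is known for shortening the life of transcripts, including those of pluripotency factors.

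The 2 libraries of pair C stand apart from the other 4. Reads assigned to genes numbered 3026837 (WT) and 3075007 (KO) in pair C, and between 8824396 and 15426894 in the other 4 libraries, so 3 reads correspond to 9.88 and 8.33 normalized counts in pair C and to 1.63 to 2.72 elsewhere. Across genes, log2 levels of WT C correlated with those of WT A and WT B at r = 0.66 and 0.67, while WT A and WT B correlated at 0.99 and KO C with WT C at 0.94. Transcripts of 62 histone genes, most of which lack a poly(A) tail, took 1.39% to 1.88% of the gene reads in pairs A and B and 0.0021% and 0.0031% in pair C. Alignments that were not unique made up 39.9% to 42.2% of the records in pairs A and B against 30.6% and 28.7% in pair C, and the gene for the glycolytic enzyme Gapdh, which has many near-identical pseudogenes, was counted at 388 to 565 in pairs A and B and at 10930 and 9582 in pair C. All 7 ESC markers, among them Pou5f1, Nanog and Sox2, had reads in every library. Their summed level was 37707 and 35257 in WT A and B, 43308 and 39300 in KO A and B, 105826 in WT C and 46693 in KO C. Fibroblast markers were also present: the sum over 8 genes was 6608 and 6738 in WT A and B, 11124 and 11408 in KO A and B, and 237 and 189 in WT C and KO C. The collagen genes Col1a1, Col1a2 and Col3a1 gave most of it in pairs A and B, all 8 markers had reads there, and Postn and Lum (WT C) and Dcn (KO C) had none in pair C. In pairs A and B these collagen genes and Dcn were higher in KO, Thy1, Postn and Pdgfrb were lower, and Lum was mixed. The part of other cells in the results below was not tested. In such bulk RNA, a change in the number of cells of a type and a change of RNA per cell cannot be told apart.

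Mettl3 itself (chr14:52294841-52305128, minus strand, GRCm38) was read at 422, 392 and 425 normalized counts in WT A, B and C and at 138, 134 and 130.5 in KO A, B and C. Every KO library lay below every WT library, and the 3 pairs were close: the differences, KO minus WT of log2(value + 1), were -1.60, -1.55 and -1.70. The mean difference was -1.62 (SE 0.12, n = 3 pairs), with an adjusted p of 0.0345 in limma, a linear model fitted across all genes with the pair as a block. The gap between pair C and pairs A and B did not pass a test of the difference (-0.12, limma adjusted p = 0.637). About 18.4% of the exon length of Mettl3 overlaps the gene Tox4 on the opposite strand, and the library kit does not keep the strand. The count covers the whole gene and does not show whether the RNA that remains encodes a working enzyme.

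A gene is called here where limma's Benjamini-Hochberg adjusted p over the 15350 genes is under 0.05. Of these genes, 802 were called higher in KO (5.22%) and 867 lower (5.65%), and 766 of the 1669 called changed by more than 2-fold. All 1669 had the same sign in the 3 pairs, which a test on 3 pairs largely requires. By sign alone, with no test, 4007 genes (26.1%) were higher and 4332 (28.2%) lower in KO in every pair. Leaving out pair A or pair B left 0 calls by limma (2286 and 2209 genes at an unadjusted p under 0.05) and 5 and 2 by edgeR's quasi-likelihood test, whereas pairs A and B without C gave 11168 calls. Of the 1669 called genes, 1527 had 20 or more reads in pair C, and in 1480 of these the change in C was at least 50% of the mean change in A and B, which the same test also favours by its choice of genes.

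Pairs A and B gave nearly the same KO effects, and pair C gave others for many genes. Across the 11521 tested genes with 20 or more reads in pair C, the differences of pairs A and B correlated at r = 0.95, those of A and C at 0.33 and those of B and C at 0.33. Among the 5861 genes with 200 or more reads in pair C the values were 0.97, 0.36 and 0.35, so genes with more reads in pair C did not bring it much closer. These correlations are across genes of the same libraries, which are not independent replicates. Genes up by 1 to 2 on the log2 scale in pairs A and B were also up in pair C in 653 of 821 cases (79.5%), with a median of 1.29 in A and B and 0.65 in C. Genes down by 1 to 2 were down in C in 457 of 655 cases (69.8%), with medians of -1.25 and -0.46.

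The difference between the KO effect in pair C and that in pairs A and B was tested in its own fit. It passed an adjusted p of 0.05 for 5350 genes (34.9%) by limma. Both limma and edgeR's quasi-likelihood test passed 2209 genes (14.4%), which are all the genes that passed edgeR. In either fit the spread comes from A against B alone, since each genotype has a single C library. The edgeR test also takes the lower depth of C into account, but it adds no second source of spread. Below, pair C is said to differ only where both passed. Counts for the gene lists below are to be read beside the shares over all tested genes. These are 5.22% called higher, 5.65% called lower, 28.2% lower in all pairs by sign, and 14.4% differing in C. Of the 2209 genes, 1472 had the opposite sign in C. For 193 of these the effect exceeded 1 on the log2 scale in both directions, 73 of them up in pairs A and B and 120 down. Among the 1669 called genes, 59 differed in C, in size and not in sign.

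**Figure D1:**
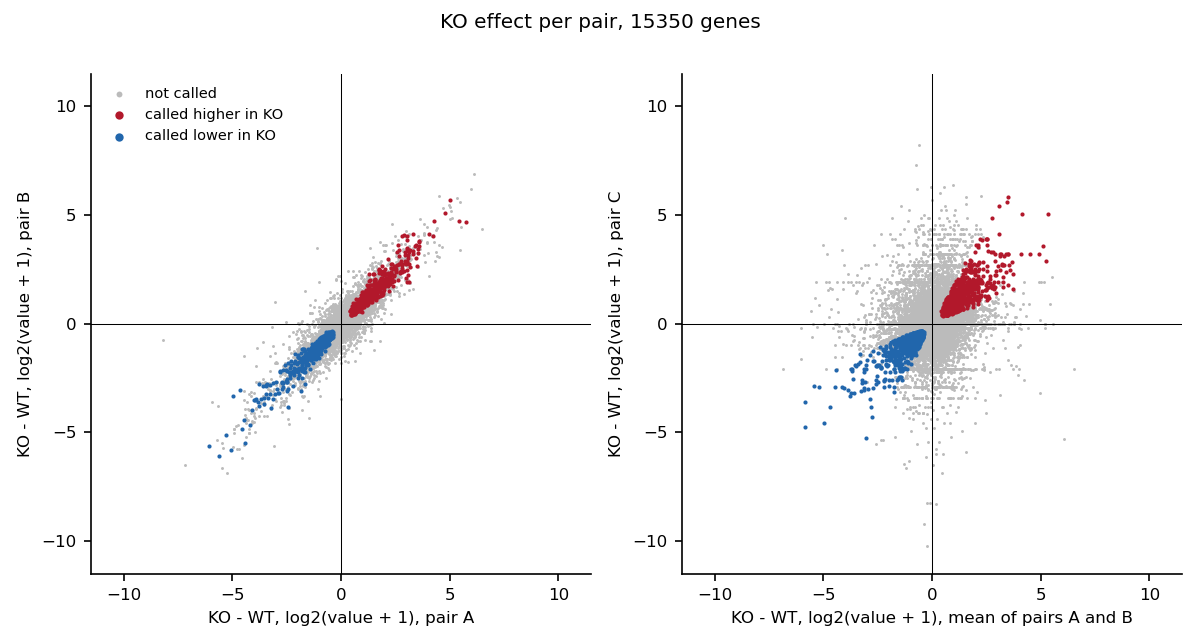
KO minus WT on the log2(value + 1) scale for each tested gene (1 point per gene), pair B against pair A on the left, and pair C against the mean of pairs A and B on the right. The 802 genes called higher (red) and the 867 called lower (blue) lie in the quadrants where the pairs have the same sign; the grey points form a narrow diagonal on the left (r = 0.93 over all tested genes) and a wide cloud on the right.

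Genes of the m6A pathway were among those that moved alike in all 3 pairs. Ythdf2 (chr4:132184912-132212303, minus strand), the reader that leads marked mRNA to decay, stood at 819, 884 and 988 in WT A, B and C and at 2093, 2226 and 2583 in KO. All KO libraries lay above all WT libraries, by 1.36 on the log2 scale (SE 0.08, limma adjusted p = 0.0345), with 1.35, 1.33 and 1.39 in pairs A, B and C. Its longest internal exon spans 1584 bases.

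Ythdc1, the nuclear reader that acts in splicing and export, went from 946, 934 and 1130 in WT to 2100, 2201 and 2497 in KO, again without overlap of the groups. The difference was 1.18 (SE 0.08, limma adjusted p = 0.0345), and pair C at 1.14 lay beside A and B at 1.15 and 1.24. Igf2bp3, a binding protein reported to stabilise m6A-marked mRNA, was at 677, 740 and 1071 in WT and at 240.0, 275 and 367 in KO, a fall in every pair, with -1.49, -1.43 and -1.54 in A, B and C (limma adjusted p = 0.0345). About 18.7% of its exon length overlaps Malsu1 on the other strand. Of 15 reader and eraser genes, 2 were called higher and 1 lower, and none passed the test of a difference in C (0 by limma or edgeR, and 0 at an unadjusted p under 0.05 by limma). The demethylase genes Fto (0.58) and Alkbh5 (-0.37) did not pass.

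On the writer side, 1 of 11 tested partners was called. Rbm15, the adaptor that guides the complex to its RNA targets, was read at 987, 942 and 191 in WT A, B and C and at 2350, 2147 and 758 in KO. WT C was far below the other WT libraries, and KO C lay below WT A and B, so the groups overlap, yet each pair rose: by 1.25, 1.19 and 1.98 (mean 1.47, SE 0.20, limma adjusted p = 0.0375). The rise was larger in C (difference 0.76, limma adjusted p = 0.010, edgeR 0.0432). Wtap, the regulatory subunit, stood at 918, 985 and 2032 in WT and at 2609, 2755 and 2764 in KO. Pairs A and B gave 1.51 and 1.48 and pair C 0.44, the difference passed both tests, and the overall value of 1.14 did not (limma adjusted p = 0.067). Mettl14, the partner that forms the core of the enzyme with Mettl3, had -0.59 (limma adjusted p = 0.0743), with -0.74, -0.69 and -0.33 in the pairs.

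Genes of germ cells and meiosis, normally silent in most other tissues and read at low to moderate levels in ESCs, held several deep falls. Of 23 tested members of the list, 4 were called lower and 1 higher, and 15 were lower in all 3 pairs. Pair C differed by both tests for 7 of the 23, where 14.4% of all tested genes did, and 6 had under 20 reads in C. The median was -0.95, against -0.02 over all tested genes, with -0.78, -0.87 and -0.99 in pairs A, B and C. Without pair C, 15 were called lower by limma, as were 5681 of all 15350 genes. Mael (chr1:166201201-166238747, minus strand), a protein of the piRNA pathway that silences transposons in germ cells, was at 163, 155 and 234 in WT A, B and C and at 9.25, 12.7 and 25 in KO. The groups were far apart, with a difference of -3.56 (SE 0.26, limma adjusted p = 0.0345) and with -4.0, -3.51 and -3.18 in the pairs.

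Hormad1, a protein of the meiotic chromosome axis (chr3:95559677-95587671, plus strand; described after its values were seen), had 124, 147 and 191 in WT and 34.8, 31.8 and 25 in KO. The 6 values did not overlap, and the difference was -2.29 (SE 0.29, limma adjusted p = 0.0369). Pair C fell by 2.89 on the log2 scale, beyond A (-1.80) and B (-2.17), without passing edgeR's test of the difference (adjusted p = 0.233). Sohlh2, a germ cell transcription factor, fell from 220, 227 and 152 to 38.6, 34.5 and 38.9 (-2.36, SE 0.23, limma adjusted p = 0.0345). Dazl, an RNA-binding protein of germ cells, fell from 254, 304 and 221 to 31.6, 36.3 and 69.4 (-2.55, SE 0.35, limma adjusted p = 0.0383). All 3 genes were lower in pair C as well as in A and B, with a smaller fall in C for Sohlh2 (-1.94) and Dazl (-1.65), which did not pass both tests of the difference.

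Promoters of many germline genes that ESCs keep low carry a CACGTG E-box, which the repressor Mga with its partner Max can bind, or a TCCCGC site of E2f6, both members of a Polycomb complex. The promoters of Mael, Hormad1, Sohlh2 and Dazl, the 4 genes of the list called lower, are shown from 250 bases before to 50 after the start, on the gene's strand, from RefSeq (GRCm38.p6), because they fell together and differ in these letters. Capitals mark CACGTG, and TCCCGC or its reverse complement GCGGGA.
Mael, chr1:166238695-166238994, minus strand: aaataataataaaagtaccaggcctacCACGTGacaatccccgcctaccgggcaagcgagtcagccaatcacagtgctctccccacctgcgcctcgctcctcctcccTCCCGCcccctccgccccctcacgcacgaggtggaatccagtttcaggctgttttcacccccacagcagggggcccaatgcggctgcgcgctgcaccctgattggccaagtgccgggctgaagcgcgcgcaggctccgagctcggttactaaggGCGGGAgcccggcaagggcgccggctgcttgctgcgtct
Hormad1, chr3:95559427-95559726, plus strand: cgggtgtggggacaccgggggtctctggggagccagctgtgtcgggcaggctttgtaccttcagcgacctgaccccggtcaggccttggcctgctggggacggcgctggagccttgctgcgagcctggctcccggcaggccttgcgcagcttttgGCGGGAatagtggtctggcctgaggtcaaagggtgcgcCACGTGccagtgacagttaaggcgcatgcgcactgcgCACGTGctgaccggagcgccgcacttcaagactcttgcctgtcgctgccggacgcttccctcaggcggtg
Sohlh2, chr3:55181794-55182093, plus strand: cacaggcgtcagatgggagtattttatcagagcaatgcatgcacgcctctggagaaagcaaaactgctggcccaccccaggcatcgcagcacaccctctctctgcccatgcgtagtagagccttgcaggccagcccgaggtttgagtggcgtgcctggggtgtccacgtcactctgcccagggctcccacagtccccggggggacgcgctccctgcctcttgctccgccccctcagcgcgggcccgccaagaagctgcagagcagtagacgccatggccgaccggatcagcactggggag
Dazl, chr17:50293571-50293870, minus strand: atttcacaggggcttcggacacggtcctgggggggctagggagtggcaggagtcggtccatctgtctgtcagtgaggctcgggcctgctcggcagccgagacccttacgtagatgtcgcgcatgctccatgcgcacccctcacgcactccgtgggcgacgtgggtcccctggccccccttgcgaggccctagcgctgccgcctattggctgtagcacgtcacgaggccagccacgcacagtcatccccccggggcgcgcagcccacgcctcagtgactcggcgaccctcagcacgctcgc
Mael has 1 CACGTG and 2 TCCCGC or GCGGGA, Hormad1 has 2 and 1, and Sohlh2 and Dazl have neither in this window. Among the 21 tested germ cell genes with a promoter in the table, 12 (57.1%) hold CACGTG, against 7.24% of all 27025 promoters, 10.4% of the promoters of tested genes and 11.8% of promoters with 20 or more CpG. TCCCGC on either strand is in 11 of them (52.4%), against 20.02%, 36.0% and 49.2%. The motifs do not overlap each other, a match is a string of letters and not a bound site, and these shares describe the list without reference to its KO effect. E2f6 itself was called higher, at 157, 166 and 283 in WT and at 302, 285 and 444 in KO (0.79, SE 0.12, limma adjusted p = 0.0404; 0.94, 0.77 and 0.65 in pairs A, B and C). For Mga, chosen after its values were seen, the 3 pairs gave 0.65, 0.65 and 0.34 and the mean difference did not pass (0.55, limma adjusted p = 0.0516). Any link of E2f6, Mga or these motifs to the falls was not tested.

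The other germ cell genes were mixed. Rpl10l, a testis copy of a ribosomal protein gene, was at 303, 300.0 and 270 in WT A, B and C and at 3538, 3210 and 936 in KO. It rose in every pair (2.92, SE 0.41, limma adjusted p = 0.0384), less in C (1.79) than in A and B (3.54 and 3.42), a difference that passed both tests. As a single-exon copy of Rpl10 it may share reads with that gene. The cohesin gene Stag3 was higher in A and B (1.74 and 1.87) and lower in C (-1.38), the piRNA factor gene Tdrd12 was near 0 in A and B (0.13 and -0.04) and was higher in C (2.17), and Meioc was lower in A and B (-2.51 and -2.52) and level in C (-0.02). For each of these 3 genes, named after their values were seen, pair C differed from A and B by both tests and the mean difference over pairs did not pass.

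**Figure D2:**
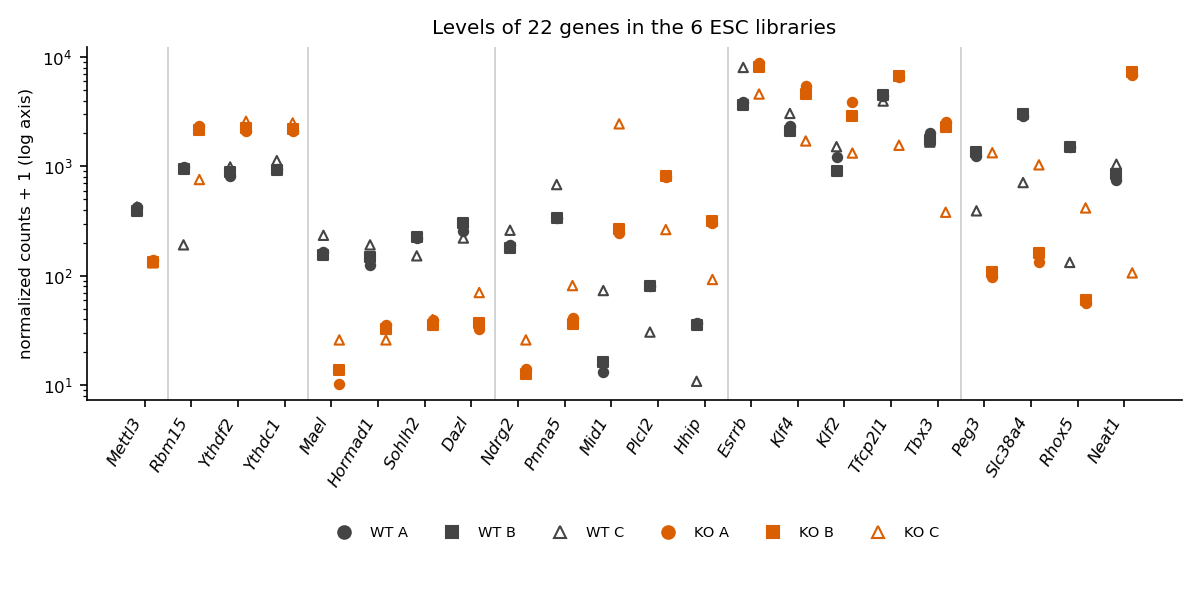
Normalized counts + 1 (log axis) of 22 genes in each of the 6 ESC libraries, WT in grey and KO in orange, with filled circles for A, filled squares for B and open triangles for C. From Mettl3 to Hhip the KO symbols lie on the same side of their WT partners in every pair, whereas from Esrrb to Neat1 the triangle of KO C lies on the other side of WT C than in pairs A and B.

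Outside the fixed lists, the deepest falls with a usable depth in pair C included Ndrg2, a stress- and differentiation-linked gene of the N-myc downstream-regulated family. It stood at 192, 178 and 260 in WT A, B and C and at 13.1, 11.8 and 25 in KO, without overlap (-3.64, SE 0.22, limma adjusted p = 0.0345), with -3.78, -3.80 and -3.33 in the pairs. Pnma5, a gene derived from a retrotransposon, was at 338, 337 and 682 in WT and at 40.3, 35.4 and 80.5 in KO (-3.11, SE 0.14, limma adjusted p = 0.0345). The 3 pairs gave -3.04, -3.22 and -3.07, so pair C lay between A and B. Slc13a5, a citrate transporter gene, fell by 3.46 on the log2 scale, with -3.70, -3.47 and -3.20 in the pairs. Uchl1, a ubiquitin hydrolase of neurons and germ cells, went from 580, 534 and 1535 to 30.5, 19.98 and 353 (-3.67, limma adjusted p = 0.0410), with a fall in C (-2.12) smaller than in A and B (-4.21 and -4.67) by both tests. The long noncoding RNA Platr3 had 102, 92.4 and 145 in WT and 0.54, 0.91 and 11.1 in KO, the first 2 of these under the 3-read floor, and fell less in C by both tests.

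The largest rises included Plcl2, a catalytically inactive relative of phospholipase C (chr17:50509403-50688484, plus strand), whose longest internal exon spans 2487 bases. It was at 79.4, 80.2 and 29.6 in WT A, B and C and at 793, 818 and 264 in KO. Both C libraries were lower than their A and B counterparts, the groups did not overlap, and the rise of 3.25 (SE 0.13, limma adjusted p = 0.0345) was alike in pairs A (3.30), B (3.34) and C (3.11). Hhip, which binds and restrains hedgehog ligands, went from 35.8, 34.4 and 9.88 to 306, 313 and 91.6 (3.10, SE 0.18, limma adjusted p = 0.0345), with 3.06, 3.15 and 3.09 in the pairs. Its WT C value rests on 3 reads, and the 95% counting interval of pair C was 1.54 to 5.56. Mid1, a microtubule-associated ubiquitin ligase gene on the X chromosome, had 12.2, 15.3 and 72.5 in WT and 248, 265 and 2450 in KO (4.45, SE 0.27, limma adjusted p = 0.0345). The C libraries held the highest value of each genotype and the pair rose by 5.06, against 4.24 and 4.03 in A and B, a gap that did not pass edgeR's test of the difference (adjusted p = 0.128). About 17.9% of its exon length overlaps the gene G530011O06Rik on the other strand. Parm1 had a mean rise of 4.58, from 7.15, 12.2 and 6.59 to 353, 350 and 88.9, where the WT C value rests on 2 reads.

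Many of the naive pluripotency factors, transcription factors that hold ESCs in the state of the preimplantation epiblast, went apart between the pairs. Esrrb (chr12:86361117-86521628, plus strand), a nuclear receptor of the naive network, was at 3875 and 3618 in WT A and B and at 8803 and 8050 in KO A and B, but at 8028 in WT C and 4586 in KO C. It was thus higher in KO in pairs A and B (1.18 and 1.15) and lower in pair C (-0.81). The difference of -1.98 passed limma (adjusted p = 0.000484) and edgeR (0.00109), and the mean over pairs, 0.51 (SE 0.47), did not pass (limma adjusted p = 0.499).

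Klf4 followed the same order, with 2361, 2108 and 3050 in WT A, B and C and 5434, 4617 and 1708 in KO (1.20, 1.13 and -0.84). Tfcp2l1, another factor of the network, had 4409, 4496 and 3956 in WT and 6553, 6758 and 1561 in KO (0.57, 0.59 and -1.34). In Tbx3, pairs A and B gave 0.34 and 0.38 and pair C -2.13. Klf2 had 1.67 in both A and B and -0.19 in C. For these 4 genes, named after their values were seen, pair C differed from A and B by both tests, and none passed over the 3 pairs. Of the 18 tested genes of the list, 1 was called, lower, and 10 differed in C by both tests. By sign 6 were lower and 1 higher in all 3 pairs, and 11 were mixed. Prdm14 was lower in every pair (-0.62, -0.52 and -0.35), as was Zfp42 (-0.10, -0.19 and -1.27). Dppa3 was higher in every pair (0.57, 0.44 and 0.48). None of these 3, also named after their values were seen, was called, and only Zfp42 differed in C by both tests. The medians were 0.10 and 0.06 in A and B and -0.39 in C.

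Dppa5a, an abundant naive marker that encodes an RNA-binding protein, was the called gene, at 5821, 5803 and 43112 in WT A, B and C and at 2162, 2058 and 7741 in KO. It fell in all 3 pairs (-1.43, -1.50 and -2.48, mean -1.80, limma adjusted p = 0.0384), more in C by both tests, and its copies elsewhere in the genome make its level uncertain. Nanog, a core factor, was at 3279, 3834 and 7777 in WT and at 3386, 3768 and 6080 in KO. Its difference of -0.11 did not pass (limma adjusted p = 0.533), with 0.05, -0.03 and -0.36 in the pairs. Pou5f1 gave 0.04, 0.00 and -0.64 and did not pass either. Among 17 general pluripotency genes, 4 were called lower and 1 higher. Tdgf1, the Nodal co-receptor gene, went from 2506, 2680.0 and 10422 to 1048, 1022 and 4927 (-1.24, limma adjusted p = 0.0345), Epcam, an adhesion molecule gene of epithelial and pluripotent cells, fell by 1.49, Tcl1 by 1.58 and Trim28, the corepressor that silences retroviruses, by 0.85 on the log2 scale. All 4 were lower in C too (-1.08, -1.34, -1.79 and -1.02), and Gdf3 was higher in all pairs (0.73 on average, 0.89 in C).

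Many genes of proliferation and metabolism were lower in KO in all pairs. Among 33 genes of DNA replication, 14 were called lower and 1 higher, and 25 were lower in every pair, with a median of -0.52 and with -0.52, -0.52 and -0.56 in pairs A, B and C. Mcm7, a subunit of the replicative helicase, was at 3120.3, 3065 and 5886 in WT A, B and C and at 1752, 1775 and 3738 in KO (-0.76, SE 0.08, limma adjusted p = 0.0345). Each pair fell (-0.83, -0.79 and -0.65), although KO C lay above WT A and B. Pold1, the catalytic subunit of polymerase delta, fell by 0.92, Pcna, its sliding clamp, by 0.68 and the primase gene Prim1 by 0.66 on the log2 scale, and pair C fell with them (-0.91, -0.83 and -0.67). Fen1, the nuclease that trims Okazaki fragments, rose instead (0.74, with 0.62 in C). About 84.2% of its exon length overlaps the gene Gm10143 on the other strand, which the library kit does not tell apart, so its level is uncertain.

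Of 22 genes of mitosis, 8 were called lower and none higher (median -0.55, with -0.54, -0.54 and -0.40 in the pairs). Cdc20, the activator of the anaphase-promoting complex, fell by 0.82 and the mitotic kinase genes Plk1 and Ttk by 0.57 and 0.55 on the log2 scale, and all 3 fell in C (-0.75, -0.42 and -0.53). The proliferation marker Mki67 had 0.15 and did not pass, and Top2a had -1.02 and did not pass (limma adjusted p = 0.0574), with -1.30, -1.30 and -0.47 in the pairs.

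Glycolysis and hypoxia-response genes had 11 of 28 called lower and none higher, with a median of -0.56 and with -0.45, -0.43 and -0.67 in the pairs. Pgk1, phosphoglycerate kinase, fell by 1.29 on the log2 scale, the phosphofructokinase gene Pfkp by 1.42, the aldolase gene Aldoa by 1.04 and the glucose transporter gene Slc2a1 by 0.99, with -1.35, -1.74, -1.28 and -1.0 in pair C. Slc2a3, the second glucose transporter of ESCs, was at 16189, 17650 and 15274 in WT and at 12244, 13158 and 11482 in KO, a small shift without overlap that was the same in each pair (-0.40, -0.42 and -0.41, limma adjusted p = 0.0428). Several other members went apart in C: Hk1 had 0.64, 0.62 and -0.39, and 8 of the 28 differed in C by both tests.

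Of 60 subunits of respiratory complexes I to IV, 15 were called lower and none higher, and 47 were lower in all pairs (median -0.42, with -0.32, -0.42 and -0.33 in the pairs). Sdha, of complex II, was at 2313, 2368 and 2582 in WT and at 1481, 1510 and 1597 in KO, without overlap (-0.66, SE 0.08, limma adjusted p = 0.0349), and pair C at -0.69 lay beside A and B at -0.64 and -0.65. Cytosolic ribosomal protein genes had 9 of 79 called lower, none higher, and 56 lower in all pairs (median -0.28, with -0.40 in C), with Rpl8 at -0.69, -0.65 and -0.75. Their processed pseudogenes share sequence with them, so single members are uncertain.

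Cholesterol and fatty acid synthesis had 8 of 28 called lower and none higher. Acly, which makes cytosolic acetyl-CoA, went from 7414, 7486 and 3278 to 3168, 3233 and 2055 (-1.04, SE 0.15, limma adjusted p = 0.0384), and Srebf2, the regulator of sterol synthesis genes, fell by 0.80 on the log2 scale. Fdps, an enzyme of the mevalonate pathway, fell by 1.47. All 3 were lower in C too (-0.67, -0.56 and -0.95). The list's medians were -0.83, -0.86 and -0.33 in the pairs, and 9 members differed in C by both tests, Acly among them. For those of these cell cycle and metabolic lists without a call higher, limma at an unadjusted p under 0.05 had 0 members higher for mitosis and ribosomal proteins and 1 each for glycolysis, respiration and lipid synthesis, and edgeR with the block called 0 higher for mitosis, respiration and ribosomal proteins and 1 each for glycolysis and lipid synthesis. With no filter on low values, limma called 8 replication, 3 mitosis, 8 respiration and 4 ribosomal protein genes lower. A pseudocount of 5 or a mean of 50 or more gave 13 for lipid synthesis. The counts of genes called lower grew without pair C, to 29 of 33 for replication, 19 of 22 for mitosis, 19 of 28 for glycolysis, 46 of 60 for respiration, 51 of 79 for ribosomal proteins and 26 of 28 for lipid synthesis, where limma called 5681 of all 15350 genes lower.

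**Figure D3:**
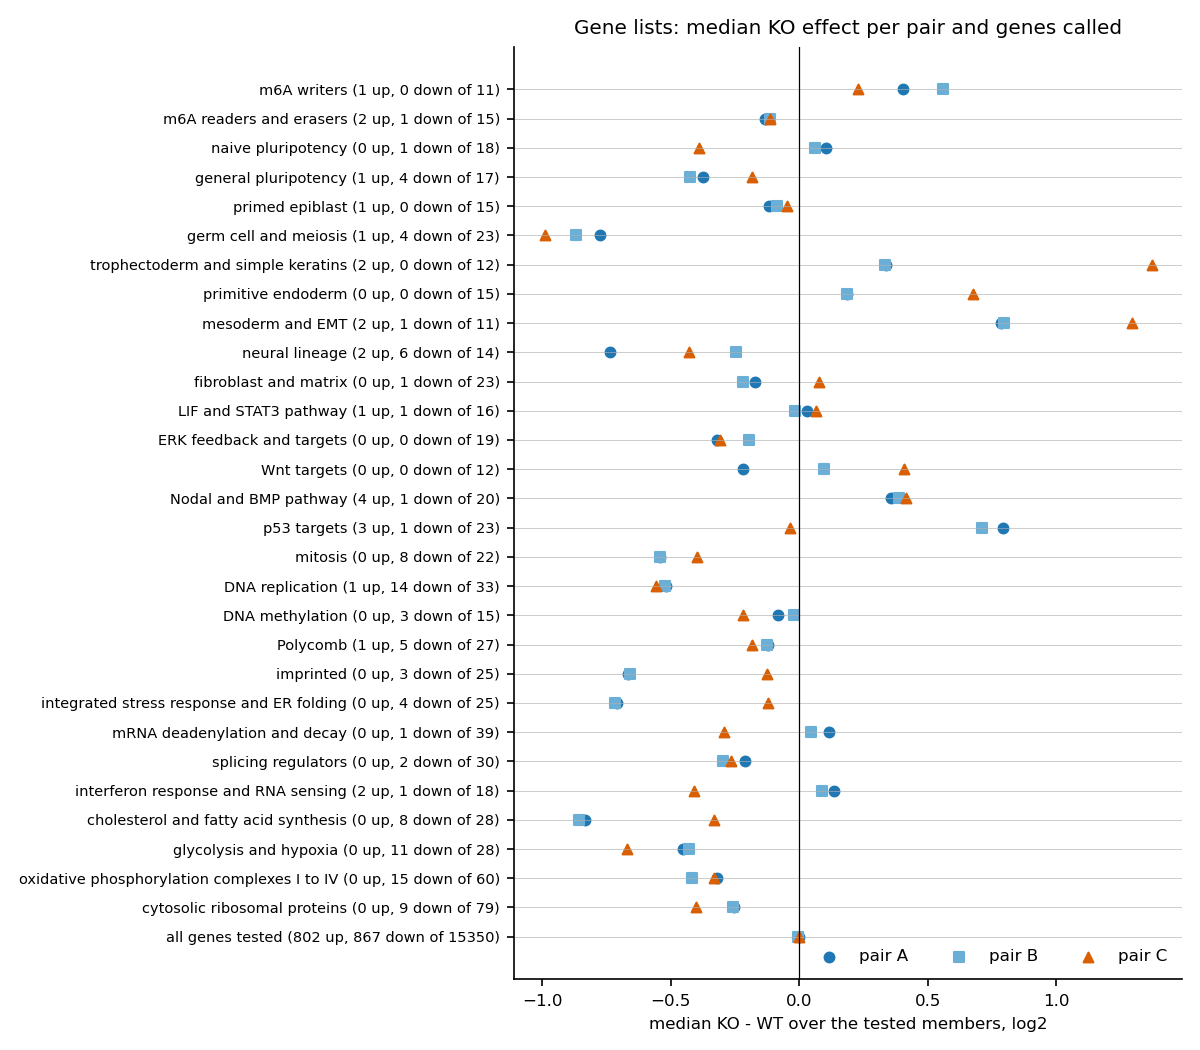
Median KO minus WT (log2) of 29 gene lists and of all tested genes in pair A (dark circles), B (light squares) and C (orange triangles), with the number called higher (up) and lower (down) of those tested. DNA replication, mitosis, glycolysis, respiration and ribosomal proteins lie left of 0 in all pairs, while naive pluripotency and p53 targets lie right of 0 in A and B and left in C; the two-cell-like list, whose median was below -4 in A and B, is left out of the plot.

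Genes of chromatin regulation fell in part. Of 27 Polycomb genes, 5 were called lower, among them the core PRC2 subunits Ezh2 (-0.87), Eed (-0.49), Suz12 (-1.27) and Rbbp4 (-0.72), and E2f6 (above) was the 1 called higher. Suz12, the scaffold of PRC2, was at 4165, 4710 and 2714 in WT A, B and C and at 1534, 1564 and 1569 in KO, without overlap. Pair C fell by less (-0.79, against -1.44 and -1.59), a difference that passed both tests, whereas Ezh2 and Eed in C were at -0.96 and -0.60. Of 15 DNA methylation genes, 3 were called lower: Dnmt1, the maintenance methyltransferase (-0.50, -0.46 and -0.48 in the pairs), Zfp57, which protects imprints (-0.70, -0.78 and -1.42), and Dnmt3l, the cofactor of the de novo enzymes (-1.004, -0.95 and -1.57). Zfp57 and Dnmt3l fell more in C by both tests. The list's median was 0.07, with -0.08, -0.02 and -0.22 in the pairs. By sign 5 of the 15 were lower in every pair, and 7 differed in C by both tests. Dnmt3l is among the 4 list members on chromosome 10, where the median in pair C was -0.47. The part of that shift in its fall was not tested.

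In signalling, 4 of 20 Nodal and BMP genes were called higher and 1, Tdgf1, lower. With no filter on low values, limma called 0 of the 20 higher. Pair C differed by both tests for 7 of the 20, where 14.4% of all tested genes did. Bmp4, chosen after its values were seen, was among the genes that differed, at 1.27 and 1.51 in pairs A and B and -0.95 in C. Bmp7, a ligand, went from 179, 172 and 32.9 to 364, 316 and 83.3 (1.07, SE 0.16, limma adjusted p = 0.0391), with 10 and 30 reads in WT C and KO C. Smad1, a transducer of BMP signals, rose by 0.72, 0.84 and 0.77 in the pairs. The antagonist gene Fst (0.93) and the BMP target Id3 (1.49) also rose, with 1.09 in C for both. Lefty2, a Nodal target and inhibitor described after its values were seen, went the other way between pairs, from 48.6 and 55.0 to 11.4 and 9.99 in A and B and from 758 to 1455 in C. Lif, the gene of the cytokine present in the medium, was at 90.1, 80.9 and 59.3 in WT and at 220.4, 192 and 178 in KO (1.36, limma adjusted p = 0.0352, 1.57 in C). Its negative feedback gene Socs3 fell in all pairs (-0.51, -0.59 and -0.74). Of 16 tested LIF and STAT3 pathway genes, Lif was the 1 called higher and Socs3 the 1 called lower. That is 6.25% in each direction, near the 5.22% and 5.65% of all tested genes. The list's medians were 0.03, -0.02 and 0.06 in the pairs, and 4 members differed in C by both tests.

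Targets of the tumour suppressor p53 had medians above 0 in pairs A and B only. Of 23 list members, 3 were called higher and 1 lower, with medians of 0.79, 0.71 and -0.04 in the pairs, and 7 differed in C by both tests. Cdkn1a, an inhibitor of the cell cycle, was at 267, 247 and 527 in WT and at 788, 753 and 672 in KO: 1.56 and 1.60 in A and B, 0.35 in C, with a difference that passed both tests (-1.23, edgeR adjusted p = 0.00747) and no call over the pairs. Aen, a p53-induced nuclease, rose in every pair (0.85, 0.80 and 0.66), as did Rrm2b (0.85, 0.66 and 0.74). The Rrm2b value in C rests on 11 and 22 reads, with a 95% counting interval of -0.35 to 1.95. Phlda3 also rose in every pair (1.39, 1.43 and 0.69), and its lower value in C passed neither test of the difference. The transcript of p53 itself, Trp53, fell from 669, 622 and 4911 to 242, 209 and 3041 (-1.24, limma adjusted p = 0.046), with a smaller fall in C by both tests. It has a processed pseudogene in mouse, so its level is uncertain.

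Lineage markers were called in some lists and not in others. The simple keratin genes Krt8 and Krt18, of trophectoderm and other epithelia, were the 2 called of 12, both higher. Krt8 went from 66.5, 76.3 and 98.8 to 313, 335 and 719 (2.40, SE 0.20, limma adjusted p = 0.0345), with 2.22, 2.12 and 2.85 in the pairs. The larger rise in C did not pass edgeR's test of the difference (adjusted p = 0.142). Of 11 tested mesoderm and EMT genes, 2 were called higher and 1 lower. Twist1, a mesenchymal transcription factor, went from 47.9, 45.0 and 26.4 to 204, 182 and 144 (2.16, limma adjusted p = 0.0345; 2.41 in C). Fibroblasts also express it, and the fibroblast marker sum rose with it in A and B but not in C (237 to 189). In A and B that rise was in Col1a1, Col1a2, Col3a1 and Dcn, whereas Thy1, Postn and Pdgfrb fell and Lum was mixed. Vim, the intermediate filament gene of mesenchymal cells, was lower in every pair, from 858, 840 and 2378 to 423, 398.7 and 1255 (-1.02, -1.07 and -0.92, limma adjusted p = 0.0345), and Foxc1 was higher (2.29, 2.74 and 3.90, limma adjusted p = 0.0386), with 0 and 5 reads in WT C and KO C. Of 14 neural genes, 6 (42.9%) were called lower and 2 (14.3%) higher, and 5 differed in C by both tests. The neuronal genes Elavl3 and Stmn2 fell by 2.64 and 1.90 on the log2 scale, with -2.76 and -1.18 in C, and Olig2 fell by 1.30 (-0.93 in C). Ncam1, at 0.97, 1.00 and 1.04 in the pairs, rose, with 13 and 32 reads in WT C and KO C. Primitive endoderm (15 genes) had 0 calls by limma, with 4 higher and 1 lower at an unadjusted p under 0.05 and 2 higher by edgeR. ERK feedback genes (19) also had 0, with 2 higher and 2 lower unadjusted and 1 lower by edgeR, and Wnt targets (12) 0, with 1 lower unadjusted and 1 higher by edgeR.

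Imprinted genes, expressed from 1 parental allele only, were often at odds between the pairs: of 25 tested, 3 were called lower and 0 higher by limma (4 at an unadjusted p under 0.05, and 1 by edgeR), and 14 differed in C by both tests. With no filter on low values, 1 was called lower. Peg3, a paternally expressed zinc finger gene (chr7:6703892-6730431, minus strand), was at 1243 and 1345 in WT A and B and at 96.3 and 107 in KO A and B, but at 392 in WT C and 1333 in KO C. The KO effect was -3.68 and -3.64 in A and B and 1.76 in C. Slc38a4, an amino acid transporter gene, was at 2867 and 2984 in WT A and B and at 133 and 160 in KO A and B, but at 712 and 1033 in WT C and KO C. The maternally expressed noncoding RNA H19 was lower in A and B (598 and 524 against 377 and 332) and higher in C (155 against 2486). These 3 genes were chosen after their values were seen. Rhox5 on the X chromosome (chrX:37804842-37808876, plus strand), a homeobox gene whose promoter is known to be controlled by DNA methylation, had the same order as Peg3, with 1498, 1513 and 132 in WT A, B and C and 55.5, 59.0 and 417 in KO. For these 4 genes pair C differed by both tests and none was called. The called genes were Meg3 and Mirg, of the same imprinted cluster, and Plagl1, with -1.82, -1.798 and -0.79 in pairs A, B and C for Meg3, -1.30, -1.43 and -0.95 for Mirg, and -3.43, -3.22 and -1.42 for Plagl1. The fall in C was smaller by both tests for Meg3 and Plagl1.

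Other genes chosen for the contrast between pairs were also far apart. Neat1 (chr19:5824708-5845478, minus strand), the RNA scaffold of nuclear paraspeckles, went from 751 and 847 to 6863 and 7249 in A and B and from 1048 to 106 in C. Zscan4d, of the two-cell-like state that a few ESCs enter at a time, had 38.6 and 53.4 in WT A and B and 0.54 and 0.00 in KO A and B, under the 3-read floor, against 13.2 and 25 in WT C and KO C. The 7 genes of that list had medians of -4.25 and -4.44 in A and B and 0.80 in C, 1 was called, lower (Gm20767, -4.49, -4.44 and -2.92), and 6 had under 20 reads in C.

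By chromosome, the KO effects of pairs A and B and of pair C were shifted in different places. Over the 954 genes of chromosome 11 with 20 or more reads in pair C, the median was -0.36 in A and -0.38 in B and -0.12 in C. Over the 539 genes of chromosome 10 it was -0.04, -0.02 and -0.47. In segments of 20 Mb, chromosome 11 had medians of -0.49 to -0.16 in pair A along its length, and chromosome 10 had -0.65 to -0.26 in pair C. X-linked genes were at -0.10, -0.13 and -0.31 and chromosome 17 at -0.05, -0.02 and -0.19. The other chromosomes lay between -0.11 and 0.11 in every pair. Of 1309 tested genes on chromosome 11, 113 (8.63%) were called lower and 24 (1.83%) higher, and on chromosome 10 it was 56 (7.97%) and 16 (2.28%) of 703. Chromosome 11 held 1309 of the 15350 tested genes, and of the lists above 6 of 27 Polycomb genes, 4 of 28 lipid synthesis genes, 3 of 22 mitosis genes, 7 of 79 ribosomal protein genes, 2 of 33 replication genes, 2 of 28 glycolysis genes and 2 of 60 respiration genes. Chromosome 10 held 703 of the tested genes, with 3 of 25 stress response and ER folding genes and 4 of 15 DNA methylation genes. It also held 3 of 28 glycolysis, 3 of 60 respiration, 4 of 79 ribosomal protein, 1 of 33 replication and 1 of 22 mitosis genes. The part of these shifts in the results for single genes on these chromosomes was not tested. Such genes include Suz12, Acly, Rpa1, Top2a and Trp53 on chromosome 11 and Ddit3, Shmt2, Dnmt3l and Plagl1 on chromosome 10.

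**Figure D4:**
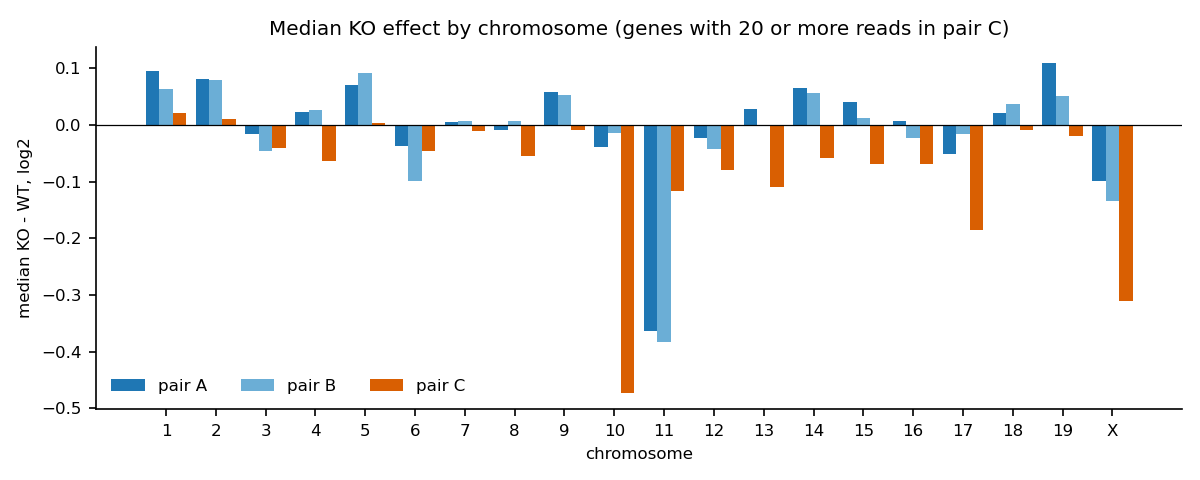
Median KO minus WT (log2) of the genes on each chromosome with 20 or more reads in pair C, as 1 bar per pair. Chromosome 11 is low in pairs A and B (-0.36 and -0.38) and chromosome 10 in pair C (-0.47).

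Exon structure, by contrast, sorted the KO effects in the same order in all 3 pairs. Protein-coding genes whose longest internal exon is under 200 bases (4985 tested) had medians of -0.13, -0.15 and -0.14 in pairs A, B and C, and those with one of 800 bases or more (1146) had 0.31, 0.29 and 0.16. Of the first, 3.79% were called higher and 8.08% lower, and of the second 10.99% and 2.53%, where all 13067 protein-coding genes gave 5.92% and 6.19%. The steps between went in order, with 7.03% lower and 4.97% higher from 200 to under 400 bases, and 3.02% and 8.10% from 400 to under 800 bases. Genes with 1 or 2 exons, which have no internal exon (1010), were higher still, at 0.45, 0.47 and 0.20, with 11.7% called higher and 1.88% lower.

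Within transcripts of 2 kb to under 4 kb, genes at the long end were again above those at the short end in all pairs: the medians were -0.10, -0.10 and -0.13 under 200 bases (2035 genes) and 0.29, 0.31 and 0.25 at 800 bases or more (267 genes). The steps were not in full order there: from 200 to under 400 bases pair C was at -0.15, below the shortest class, with 7.89% called lower against 7.72%, and genes of 1 or 2 exons were at 0.13 in pair C, below the longest class. Without chromosomes 10, 11, 17 and X the order was the same, at -0.09, -0.10 and -0.11 against 0.35, 0.33 and 0.18. The number of GGACT motifs in the transcript, on its own strand, went with the effect as well. Genes without one (1050) had 2.57% called higher and 9.05% lower, and those with 11 to 20 (492) had 9.76% and 1.63%, with medians of -0.20, -0.20 and -0.24 against 0.23, 0.23 and 0.11. The few genes with 21 or more (33) did not continue this, with 3.03% called in each direction and medians of 0.08, 0.09 and -0.17. Longer transcripts hold more motifs: within transcripts of 2 kb to under 4 kb the step from 0 to 6 or more motifs went from 0.02, -0.05 and -0.16 to 0.08, 0.05 and -0.01, a smaller change. These are descriptions over genes, with no test. Ythdf2, Plcl2 and Klf4 (longest internal exons of 1584, 2487 and 985 bases) lie at the long end, and Klf4 was lower in KO in pair C; Tnrc6c, of the microRNA silencing complex, has one of 2601 bases and fell in all pairs (-0.70, -0.76 and -0.48).

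**Figure D5:**
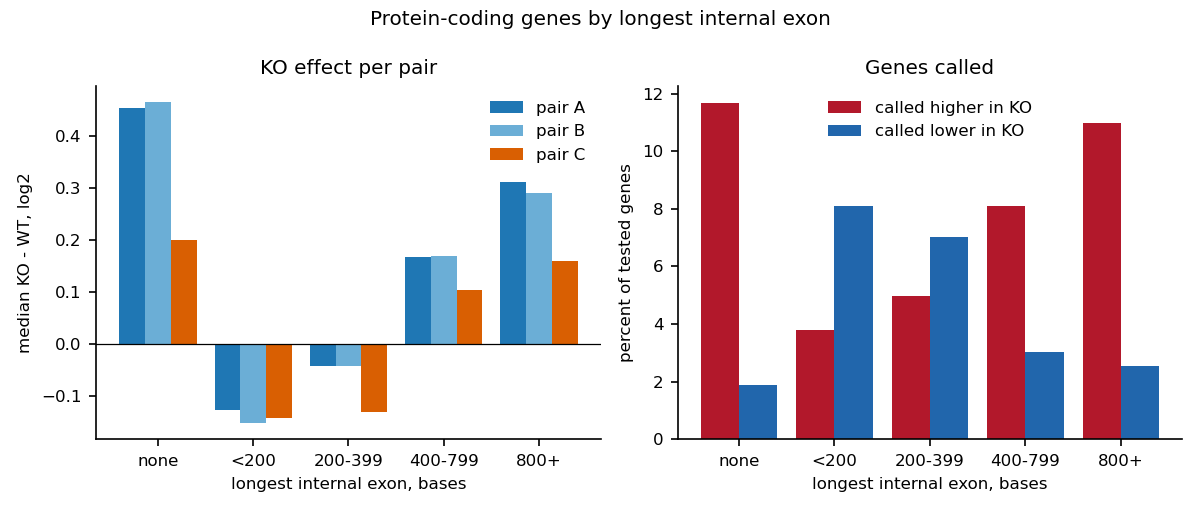
Protein-coding genes by the length of their longest internal exon (none for genes of 1 or 2 exons): on the left the median KO minus WT (log2) per pair, on the right the percent of tested genes called higher (red) and lower (blue) in KO. The medians rise from below 0 under 200 bases to above 0 at 800 bases or more in pairs A, B and C.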

How the data were processed

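RNA-seq was measured in 6 ESC libraries, 3 per genotype. Per the submitters' processing notes, the build was mm10 and the tools included DESeq, TopHat2 2.0.10, HTSeq 0.6.0, CASAVA 1.8.2 and Bowtie. The annotation release and the strand setting are not given in the sources used here. The deposited signal is a normalized count per gene, scaled by the authors with DESeq. Every library's values were whole multiples of its lowest positive value (tolerance 0.01, 100% of values), which gave back the read numbers. The table's 5 HTSeq summary lines were set aside, and reads outside genes were 34.9% to 37.1% of records. Symbols and positions came from GENCODE M21 for GRCm38, which held 37693 of the 39179 identifiers.

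The main test was limma 3.58.1 with trended, robust variances on log2(value + 1), with the replicate letter as a block, two-sided, adjusted by Benjamini-Hochberg over 15350 genes; it has 2 residual degrees of freedom. The rule of the comparison pairs WT and KO by letter. As a check of the pairing, each library's deviation from its genotype's mean was correlated with that of its partner over genes (r = 0.85, 0.84 and 0.87 for A, B and C). Libraries A and B of different genotypes gave 0.82, and C with either -0.86 to -0.84, so the pairing rests mostly on C. A second fit tested the KO effect in pair C against A and B. Count tests on the recovered reads (edgeR 4.0.16, which called 3145 genes, and DESeq2 1.42.0) were alternatives, as were a pseudocount of 5, other filters, TMM scaling, all 10 libraries, no block, and leaving out each pair. The fits were also run on simulated counts, with a KO effect that was the same in all pairs or present in pair C only. The simulated spread was that of A against B. These runs therefore do not show how the calls fare where the pairs disagree.

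Named genes were, per direction, the 12 largest changes among called genes that averaged at least 100 in the genotype where they were higher, had at least 20 reads in pair C and one sign in all pairs, and bore no model or clone symbol; from each list, at most 3 called members in a direction and the most abundant one not called; Mettl3; and the 6 largest differences of pair C in each direction. Other members of the 30 gene lists are named to describe their list, and genes marked as such were chosen after their values were seen. The genes described, the lists and the tests were chosen with earlier results of these data known. Promoters and their motif counts came from RefSeq sequences. Exon lengths and GGACT counts came from a single GENCODE M21 transcript per gene. Protein-coding transcripts were preferred, then principal isoforms by the APPRIS annotation, then those tagged basic, then the longest. Reads are not independent molecules.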

Additional observations from a re-analysis of the deposited data

Results flagged for a closer look

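For 19 genes named by the rule above, the KO effect in pair C differed from that in pairs A and B by both limma and edgeR (adjusted p under 0.05). Of those called over the 3 pairs, Platr3 (2.25 on the log2 scale, pair C minus pairs A and B), Pla2g1b (2.54), Uchl1 (2.32), Crtac1 (1.51), Npl (1.57) and Dhrs7 (1.55) fell less in pair C. Rpl10l (-1.69) rose less in C, and Islr2 (-2.19) fell more. Rhox5 (6.35), the keratin gene Krt42 (6.14) and AI662270 (6.57) were lower in KO in pairs A and B and higher in pair C.

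Many of the widest gaps were in pseudogenes and gene models, and pseudogene counts are uncertain because such copies resemble their parent genes. Gm26825 (8.02) and ENSMUSG00000083840 (8.82), the latter without a symbol, had 8018 and 6850.0 in WT A and 32.9 and 16.5 in WT C, while all KO libraries were between 4606 and 5335. Rps13-ps1 (-11.36) was the most extreme, at 3.58, 3.05 and 692 in WT A, B and C and at 284, 293 and 16.7 in KO. Gm8730 (-10.01), Gm9825 (-8.84), Atp6v0c-ps2 (-8.49), Rpl34-ps1 (-8.15) and Gm9625 (-8.01) had 0 to 5.56 in KO C, under the 3-read floor of 8.33, and between 169 and 11201 in the other 5 libraries. The share of alignments that were not unique was 28.7% in KO C and 30.6% in WT C; its part in these values was not tested.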

How the results depend on the processing

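The 1669 calls rest on the pairing and on having both pairs A and B. Without the replicate block, limma called 0 genes (1581 at an unadjusted p under 0.05) and edgeR, added after seeing the data, 0 (1580). With the block, no filter gave 1056 calls, edgeR 3145, DESeq2 3813 and all 10 libraries 4620, and of the 1669 genes edgeR kept 1668 and DESeq2 and the 10 libraries 1669, each with the same sign. Leaving out one replicate gave 0 (without A or B) to 11168 calls (without C) by limma, and 2 (without B) to 11281 (without C) by edgeR, added after seeing the data. Without C, 1668 of the 1669 were called with the same sign by either tool, among these larger counts. A pseudocount of 5, a mean of 50 or more and TMM scaling kept the count within 1.5 times. The cause was not tested. For pair C against A and B, 5350 calls became 2209 by edgeR and 1058 by DESeq2, and this test could not be fitted with a pair left out.

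Among the named genes, 6 that had not been called turned their sign without replicate C and are given here. Other named genes turned with values near 0, such as Pou5f1 (from -0.20 to 0.02) and Nanog (from -0.11 to 0.01). Over all tested genes, 1472 of those that differed in C by both tests had the opposite sign there. Over the limma fits that leave out one replicate, with edgeR's value without C last, Nes ranged from -0.23 to 0.32 (-0.22), Fn1 from -0.58 to 0.067 (0.082), Pim3 from -0.33 to 0.17 (0.19), H19 from -0.66 to 1.67 (-0.65), Tbx3 from -0.89 to 0.36 (0.37) and Tfcp2l1 from -0.38 to 0.58 (0.59).

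Depth limits pair C: 3829 of the tested genes had under 20 reads there and 911 had none, and intervals and floors cover counting error only. Both the limma and the edgeR test of pair C assume that C varies as A and B do.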

Other observations

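Of 25 genes of the integrated stress response and ER folding, 4 were called lower and 0 higher by limma (1 higher at an unadjusted p under 0.05, 0 by edgeR), and 8 differed in C by both tests, with medians of -0.71, -0.72 and -0.12 in pairs A, B and C. The called genes include Ddit3, a transcription factor of that response, at 1024, 936 and 181 in WT A, B and C and at 367, 331 and 80.5 in KO (-1.38, limma adjusted p = 0.0345; -1.48, -1.50 and -1.16 in the pairs). Shmt2, of mitochondrial one-carbon metabolism, fell by 1.06 on the log2 scale (-1.34 in C). Ddit3, Shmt2 and Hsp90b1, also called lower, are the 3 list members on chromosome 10, where the median in pair C was -0.47. The part of that shift in their falls was not tested. Of 18 genes of interferon response and RNA sensing, 2 were called higher and 1 lower: Bst2 rose by 0.84, 0.73 and 0.71 in the pairs, Mavs, the adaptor of RNA sensors, by 1.44, 1.38 and 0.68, and Xaf1 fell (-2.42, -2.20 and -1.71). The rise of Mavs was smaller in C by both tests. Of 30 splicing regulators, 2 (6.67%) were called lower, Hnrnpl and Hnrnph3, near the 5.65% of all tested genes. By sign 20 were lower in all pairs, where 28.2% of all tested genes were, with medians of -0.21, -0.30 and -0.26. Of 39 mRNA decay factors, 1 was called, Tnrc6c, lower. Of 23 fibroblast and matrix genes, 1 was called, Col6a3, lower (-1.49, -1.35 and -2.46), where the C value rests on 6 and 1 reads, and 9 of the 23 differed in C by both tests. Of 15 genes of the primed epiblast, 1 (6.67%) was called, Sall2, higher (0.94, 1.46 and 1.41), near the 5.22% of all tested genes.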
